A study of Mus musculus with 8 samples.

Results

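C1q-positive macrophages were defined here as cells in which at least 2 of the 3 chains of complement C1q, C1qa, C1qb and C1qc, were detected by at least 1 UMI each. A UMI is a molecular tag that counts 1 captured RNA molecule. The rule found 2919 such cells among 5218 kept cells (55.9%). It left 718 cells with no C1q chain, called C1q-undetected, and 1581 cells with 1 chain. The cells were chosen by the detected UMIs of these chains, so their presence in them is the definition and not a result.

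The cells came from 8 single-cell RNA libraries of marrow from the hind limbs of C57Bl/6J mice. The labels give these as male and 10 weeks of age. All cultures received M-CSF, the growth factor that drives marrow cells to become macrophages, for 3 days. The 4 control libraries then had 24 h without added protein, and the 4 CYR61 libraries had 24 h with 4 µg/mL of CYR61, a secreted matricellular protein that binds integrins. The cells were lifted with accutase and captured on the HIVE microwell platform. The series title sets the question in macrophages derived from monocytes in fibrosing fatty liver disease. These are cultured marrow cells and not liver macrophages, and no source used here says whether replicates were separate animals or cultures, so p-values measure the spread between these libraries.

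C1q is the recognition part of the first complement component. Its A, B and C chains wind into a collagen-like stalk with a globular head that binds antibody complexes, dying cells and microbes, and it starts the classical cascade or marks debris for uptake. Unlike most complement proteins, which the liver makes, C1q is made mainly by macrophages and related myeloid cells. It is a common marker of resident and debris-clearing macrophages, where it is often found with Apoe, Maf, Selenop and Pf4.

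The 3 genes lie side by side on the minus strand of chromosome 4 of mm10, with C1qb at 136880129 to 136886187, C1qc at 136889804 to 136893065 and C1qa at 136895917 to 136898803 (GENCODE vM21). The promoter set used held no entry for C1qa. The bases just upstream of C1qb and C1qc, the pair seen together most, are shown. They are RefSeq sequence of GRCm38.p6, the assembly called mm10, and each is cut to the bases before the first base of both the RefSeq and the GENCODE gene. Capitals mark the letters GGAAGT, a core bound by ETS factors such as the macrophage factor PU.1, or TGCTGA, a half-site of MAF factors, each searched on both strands as GGAAGT or ACTTCC and TGCTGA or TCAGCA. No overlap between the 2 motifs occurred in these windows.
C1qb, 250 bases, chr4:136886201-136886450, minus strand: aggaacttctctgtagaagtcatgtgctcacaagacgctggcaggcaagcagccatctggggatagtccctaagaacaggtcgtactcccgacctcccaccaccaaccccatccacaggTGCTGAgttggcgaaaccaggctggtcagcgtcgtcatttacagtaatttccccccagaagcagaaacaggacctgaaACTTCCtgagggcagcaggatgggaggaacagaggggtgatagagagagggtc
C1qc, 99 bases, chr4:136893066-136893164, minus strand: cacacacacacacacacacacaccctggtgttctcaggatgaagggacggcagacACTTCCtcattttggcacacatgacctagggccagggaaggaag
The ETS letters began 66 bases before the GENCODE first base of C1qb and 44 bases before that of C1qc, and the MAF letters began 144 bases before that of C1qb. Such short matches are common. Of 32851 RefSeq promoter windows, 19.7% held the ETS letters and 16.1% the MAF letters in 250 bases, and 6.86% and 6.43% in 99 bases. A match is a description of these letters and not a binding site.

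Barcodes recurred between tables of the same date stamp, and a recurring barcode was counted only where its UMIs were highest. In each group, replicates 1 and 2 had the earlier date stamp and 3 and 4 the later. Of the C1q-positive cells, 1991 (68.2%) had a barcode found in at least 1 more table of that date. Total UMIs per library ran from 1379637 to 16318946. Against the label male, 4 libraries held Xist, the RNA that silences an X chromosome in female cells, at 1173 to 1271 CPM in kept cells, where CPM is a gene's UMIs per 1000000 UMIs of the cells summed. These were control replicates 2 and 3 and CYR61 replicates 1 and 2, and the others held at most 1.31 CPM.

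The C1q-positive cells were unevenly spread. Control replicates 1 to 4 held 172, 62, 50 and 48 of them, 332 in all, and CYR61 replicates 1 to 4 held 787, 1519, 75 and 206, 2587 in all. They were 35.8%, 37.3%, 33.6% and 21.7% of the kept cells of control replicates 1 to 4, and 70.5%, 61.1%, 38.7% and 51.2% of those of CYR61 replicates 1 to 4. The 95% Wilson intervals, which cover counting error only, ran from 16.8% to 27.6% for control replicate 4, the lowest, and from 67.7% to 73.1% for CYR61 replicate 1, the highest. The lowest CYR61 library, replicate 3, had an interval of 32.1% to 45.7%, which overlapped those of control replicates 1, 2 and 3.

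The cells carried macrophage genes in every library, although Cd14 was sparse. Lyz2, which encodes lysozyme, was detected in nearly all of them (99.97%) at 5226 to 9470 CPM across libraries, with a median of 7200 CPM. Cd68, a lysosomal glycoprotein, was at 690 to 1213 CPM (median 946), with a UMI in 91.1% of the cells. Adgre1, which encodes the F4/80 surface protein, was at 438 to 678 CPM (median 531) and in 85.7%. Csf1r, the receptor for M-CSF, was at 349 to 549 CPM (median 442) and in 77.9%, and Mertk, a receptor for dying cells, at 158 to 253 CPM (median 195) and in 58.8%. Itgam, which encodes a chain of complement receptor 3, was in 93.2% of the cells at 1201 to 1689 CPM. The planned macrophage markers also held Fcgr1 and Cd14. Fcgr1 was in 70.3% of the cells, at 89.4 to 140 CPM in control and 391 to 532 CPM in CYR61 libraries. Cd14 was in only 33.2%, at 53.2 to 146 CPM (median 82.6), the least detected of the macrophage markers given here. No library fell to 0 for any of these genes.

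Markers of lymphoid, erythroid, mast and basophil cells were low in the C1q-positive cells, while those of neutrophils, dendritic cells and monocytes were higher. Summed over 10 erythroid markers, the level was at most 2.39 CPM in any library, with both alpha and both beta globin genes at 0. Summed over 11 B and plasma cell markers, the level was 10.3 to 46.8 CPM in the control libraries and 4.17 to 6.25 CPM in those with CYR61, with Igkc, Iglc2, Jchain and Vpreb3 among those at 0. Summed over 12 T and NK cell markers it was at most 20.6 CPM, and over 9 mast cell and basophil markers at most 7.65 CPM. Stromal and endothelial markers reached at most 14.6 CPM and megakaryocyte and platelet markers 45.6 CPM. Over 12 neutrophil markers it ran from 192 to 690 CPM without and 146 to 2531 CPM with CYR61, and all 12 were detected in some cell. Over 12 dendritic cell markers it ran from 193 to 336 CPM without and 482 to 1005 CPM with CYR61, with no overlap. Cd209a, Ccr7 and Fscn1 were at 0. Bst2 alone, also an interferon-response gene, gave 121 to 158 and 314 to 796 CPM of these sums. Of single genes tested, 5.27% did not overlap between the groups. Over 12 monocyte markers the sum was 806 to 1211 and 856 to 1447 CPM. Over 10 osteoclast markers, several of which macrophages share, it was 2026 to 2725 and 1803 to 2680 CPM.

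C1q detection was also read in cells rich in 6 neutrophil granule genes, Ngp, Ltf, Camp, Lcn2, S100a8 and S100a9. Of 14 cells with at least 5% of their UMIs from these genes, 0 were C1q-positive, which allows a share of up to 21.4%. C1qb was still detected in 35.7% of them and C1qc in 14.3%, at a median of 2477.5 UMIs. At a lower limit of 1% granule-gene UMIs there were 73 cells, at a median of 2460 UMIs, of which 11 (15.1%) were C1q-positive. C1qb was detected in 57.5% of the 73, C1qc in 17.8% and C1qa in 6.85%. Of the 5145 cells under 1% granule-gene UMIs, at a median of 2785 UMIs, 56.5% were C1q-positive, and C1qb was detected in 81.3%, C1qc in 57.5% and C1qa in 22.2%. C1qb was thus detected in cells rich in granule genes too. Whether these were cells of another type or doublets was not tested.

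Detection of the chains followed their level. C1qb had the most UMIs, with no correction for the length of the RNA, at 546 to 1131 CPM of the C1q-positive cells of a library, then C1qc at 207 to 506 CPM and C1qa at 31.0 to 134 CPM. The pair C1qb and C1qc without C1qa made up 61.8% of the C1q-positive cells and all 3 chains 31.8%. C1qa with C1qb made up 5.76% and C1qa with C1qc 0.719%, so nearly all of these cells were C1qb cells.

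The edge of the rule was also an edge of depth. Cells with 0, 1, 2 and 3 chains had median UMIs of 1427, 1924, 3758.5 and 9245. Cells just outside the rule, with 1 chain, held a median of 2 C1q UMIs, and cells just inside it, with 2 chains, a median of 5. C1qb was at 641 CPM in the former and 818 CPM in the latter. The share of C1q-positive cells was 31.5% at 1000 to under 2000 UMIs and 50.5%, 73.3% and 88.7% at 2000 to under 4000, 4000 to under 8000 and 8000 or more. At 8000 UMIs or more, 0.986% of cells were C1q-undetected. At 1000 to under 2000 UMIs, C1qc was detected in 41.8% of C1qb-positive cells and in 22.7% of C1qb-negative cells. An undetected cell was thus in most cases a shallow cell, and every test between the classes below is matched on depth.

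**Figure D1:**
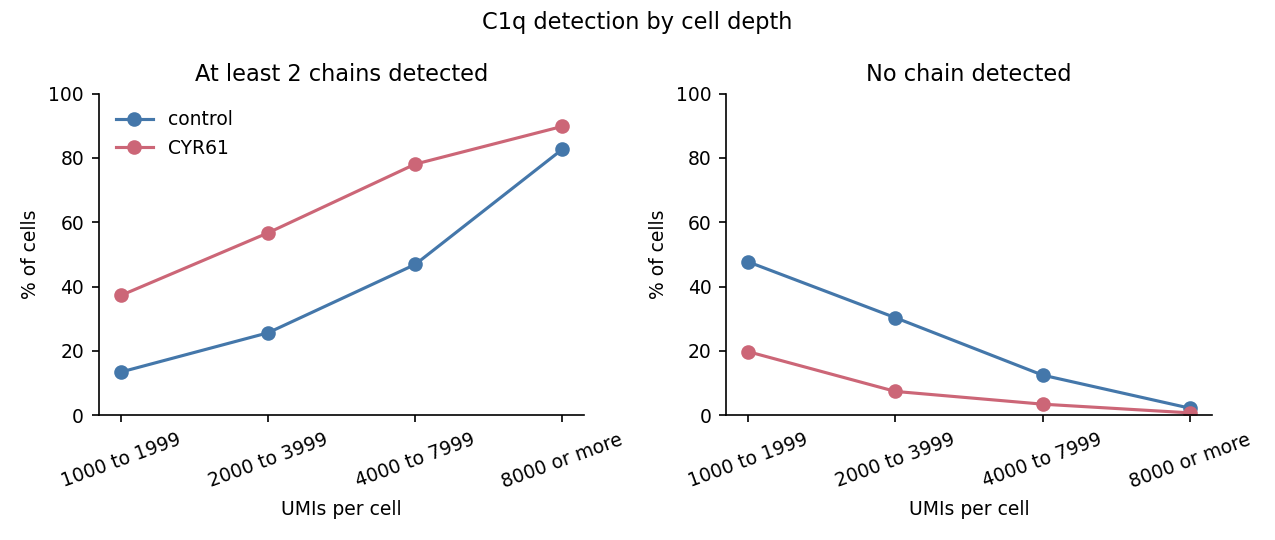
Share of kept cells (%) with at least 2 C1q chains (left) or none (right), by UMIs per cell, pooled over the 4 control (blue) or 4 CYR61 (red) libraries. Positive shares climb with depth in both groups, from 13.4% to 82.7% in control and from 37.2% to 89.8% in CYR61 cells.

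Within each depth range the pooled CYR61 cells were more often C1q-positive than the control cells. The shares were 37.2% against 13.4% at 1000 to under 2000 UMIs, 56.7% against 25.6% at 2000 to under 4000, 78.1% against 46.9% at 4000 to under 8000 and 89.8% against 82.7% at 8000 or more. CYR61 replicates 1 and 2 gave most of the CYR61 cells, so these pooled shares lean on them and carry no test.

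To compare libraries at equal depth, every cell was thinned to 1000 UMIs. The shares rest on the C1q UMIs that chose the cells, and higher C1qa with CYR61 was known beforehand. They are thus not independent evidence. At that depth control replicates 1 to 4 had at least 2 chains in 7.28%, 12.7%, 11.4% and 5.88% of cells, and CYR61 replicates 1 to 4 in 29.4%, 24.7%, 14.4% and 16.2%. The lowest CYR61 share was above the highest control share, 21.2% ± 7.07 against 9.30% ± 3.24 (SD, n = 4 each), a difference of 11.9 percentage points. The exact two-sided permutation p was 0.0286, the smallest that 70 assignments allow, and 0.0857 when adjusted over the 3 shares compared, so the difference did not pass. The groups overlapped in cells of at least 2000 UMIs thinned to 2000 (38.8% against 21.6%, exact permutation p = 0.114), in cells with at most 10% mitochondrial UMIs and with every barcode kept in each table. The share with at least 1 chain was 63.7% ± 11.0 against 46.3% ± 3.94 (exact permutation p = 0.0571, adjusted p = 0.0857, n = 4), and CYR61 replicate 3, at 51.0%, lay just under control replicate 2, at 51.2%. The share with all 3 chains was 1.67% ± 1.34 against 0.727% ± 0.724 (exact permutation p = 0.371, n = 4) and was 0 in control replicate 2 and CYR61 replicate 3. In cells of at least 2000 UMIs thinned to 2000 it was 8.11% ± 3.25 against 1.23% ± 0.975, with no overlap (exact permutation p = 0.0286, adjusted p = 0.0857, n = 4).

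Of the 3 chains, C1qa had levels in all kept cells that did not overlap between the groups. It was at 31.5, 24.2, 40.4 and 20.2 CPM in control replicates 1 to 4 and at 110, 79.5, 99.3 and 72.6 CPM in CYR61 replicates 1 to 4. The log2 fold change was 1.67 (SE 0.26, edgeR), and the groups did not overlap for 516 of 10243 genes (5.04%). That C1qa was higher with CYR61 was already known from an earlier look at these libraries, so the levels of the chains are given as a description, with no test. C1qb was at 514, 639, 635 and 400 CPM in control and 1069, 901, 618 and 746 CPM in CYR61 replicates 1 to 4 (log2 fold change 0.65 with SE 0.21). C1qc was at 160, 257, 220 and 117 CPM in control and 448, 366, 223 and 256.1 CPM in CYR61 replicates 1 to 4 (log2 fold change 0.83 with SE 0.27). The groups overlapped for both, at CYR61 replicate 3 and, for C1qc, narrowly at replicate 4. Whether the 3 changes differed from each other was not tested.

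**Figure D2:**
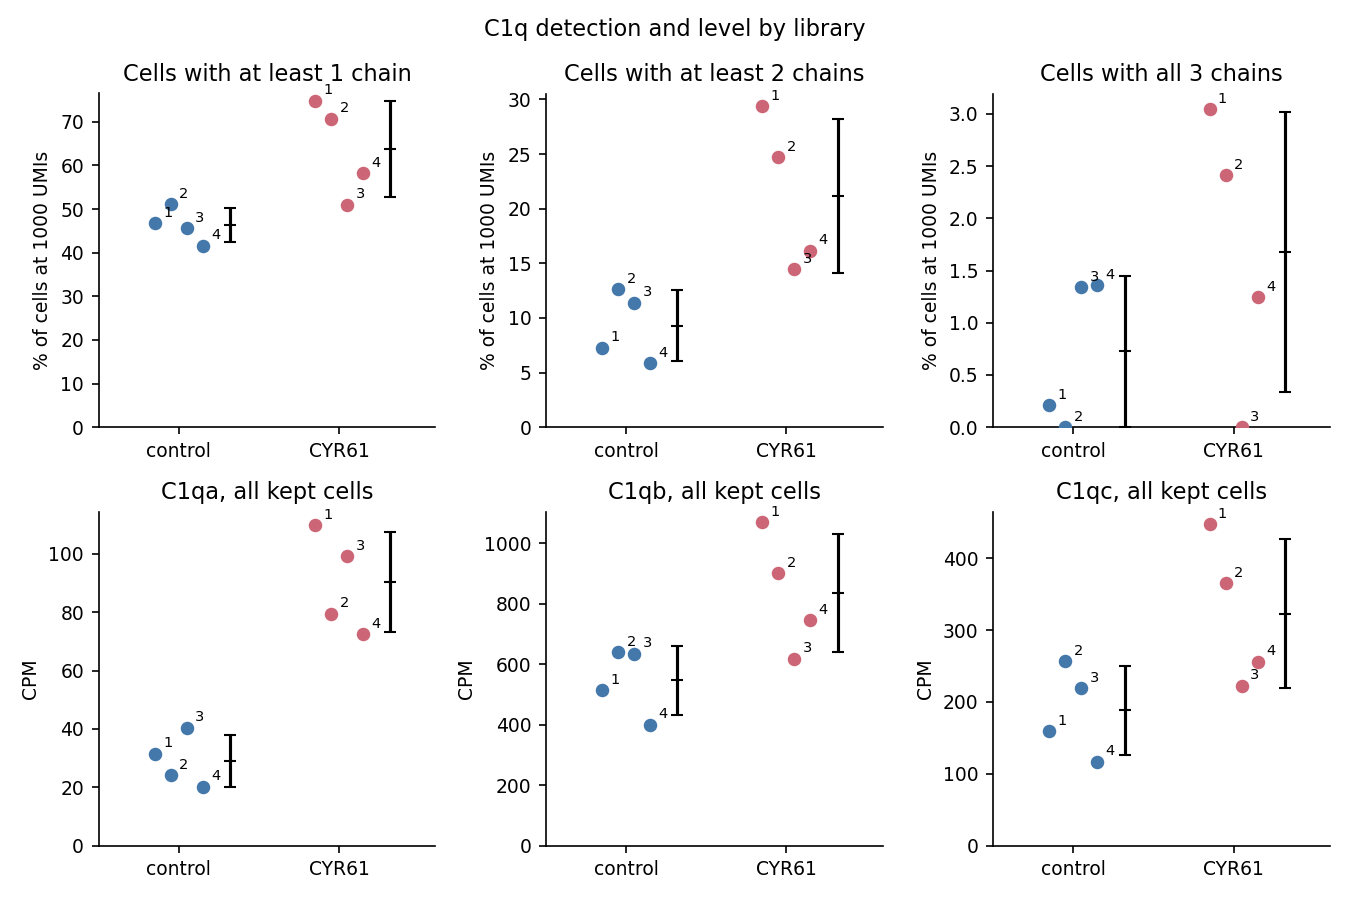
C1q by library, with each point a library numbered by replicate and bars showing mean ± SD (n = 4; lower bars stop at 0). Top, share of cells (%) with at least 1, at least 2 or all 3 chains after thinning to 1000 UMIs; bottom, CPM of each chain in all kept cells. C1qa and the share with at least 2 chains separate the groups, and the other panels overlap.

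To ask what C1q-positive cells shared beyond C1q, 474 of them were paired within each library with C1q-undetected cells of nearly equal UMI count. Control replicates 1 to 4 gave 54, 22, 32 and 25 pairs, and CYR61 replicates 1 to 4 gave 66, 203, 28 and 44. Median UMIs were 1823 ± 488 in the positive and 1813 ± 480 in the undetected cells (SD, n = 8 libraries, exact sign-flip permutation p = 0.422). The pairs hold 66.0% of the undetected cells and 16.2% of the positive cells, so they describe the shallow end of the C1q-positive cells.

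At equal depth the C1q-positive cells were slightly richer in distinct genes and lower in mitochondrial and ribosomal RNA. At 1000 UMIs they showed a median of 617.75 ± 16.3 genes against 598.75 ± 16.9 (SD, n = 8), higher in 8 of 8 libraries (exact permutation p = 0.00781, the smallest that the sign flips give, adjusted p = 0.0313). Their mean mitochondrial share was 10.1% against 11.0%, lower in 7 of 8 libraries (exact permutation p = 0.0234, adjusted p = 0.0313, n = 8). Their ribosomal RNA share, which includes the mitochondrial ribosomal RNAs, was 12.5% against 14.1%, lower in 7 of 8 (exact permutation p = 0.0156, adjusted p = 0.0313, n = 8). Each adjusted p rose to 0.0625 when any of control replicates 2, 3 and 4 or CYR61 replicates 2, 3 and 4 was left out. In these fits the gene number stayed at an exact permutation p of 0.0156, the smallest that 128 sign flips allow. The rise of its adjusted p thus does not by itself show a weaker difference. The mitochondrial and ribosomal shares moved with the gene differences below, and their part in them was not tested.

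The edgeR test of these pairs called 10 of 1596 genes (0.627%), 4 higher in the C1q-positive cells (0.251%) and 6 lower (0.376%). The higher genes were Apoe, Selenop, Maf and Slc40a1. The lower ones were Rnf128, Mmp12 and Anxa1, and the granulocyte genes S100a8, S100a9 and Ngp. Few genes could be tested at this depth, and those 1596 are the more abundant ones. The direction was the same in all 8 libraries for 38 genes (2.38%). In the earlier date stamp, the later date stamp and the control libraries alone edgeR called 6, 3 and 5 genes, all of them lower (79, 59 and 32 higher genes had an unadjusted p under 0.05). The CYR61 libraries alone gave 8 higher and 6 lower genes.

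Apoe, on chromosome 7 from 19696109 to 19699188, encodes the apolipoprotein that carries cholesterol out of macrophages. It was at 4055, 3205, 1748 and 3826 CPM in C1q-positive cells of control replicates 1 to 4, and at 3422, 1162, 1362 and 3112 CPM in their matched undetected cells. In CYR61 replicates 1 to 4 it was at 3381, 3046, 4499 and 3914 CPM in positive and 2775, 2089, 2550 and 2922 CPM in undetected cells. It was higher in the positive cells of 8 of 8 libraries (log2 fold change 0.49 with SE 0.09, edgeR adjusted p = 0.00075), while the levels of the classes overlapped across libraries.

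Maf, on chromosome 8 from 115682942 to 115707794, encodes a transcription factor of mature macrophages. Positive cells had 246, 785, 583 and 223 CPM in control and 567, 531, 367 and 338 CPM in CYR61 replicates 1 to 4. Undetected cells had 167, 108, 259 and 93.5 CPM in control and 514, 441, 99.6 and 219 CPM in CYR61 replicates 1 to 4. Maf was higher in positive cells of 8 of 8 libraries, most of all in control replicate 2 (log2 fold change 0.73 with SE 0.18, edgeR adjusted p = 0.0357). The call was near the threshold and was lost in 6 of the 8 fits that left out 1 library, kept without CYR61 replicate 1 or 2.

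Selenop, on chromosome 15 from 3268547 to 3280508, encodes a secreted carrier of selenium. It was at 975 to 2882 CPM in positive cells (median 1619) and 717 to 1830 CPM in undetected cells (median 1102) over the 8 libraries. It was higher in 7 of 8, with control replicate 1 the exception (log2 fold change 0.54 with SE 0.11, edgeR adjusted p = 0.00583). Slc40a1, which encodes the iron exporter ferroportin, was at 255 to 582 CPM against 120 to 384 CPM. It was higher in 7 of 8, with control replicate 2 the exception (log2 fold change 0.68 with SE 0.16, edgeR adjusted p = 0.0357), and its call was lost in 6 of the 8 fits without 1 library, kept without control replicate 2 or 3.

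Rnf128, on chromosome X from 139563316 to 139673145, encodes the ubiquitin ligase GRAIL. It was lower in positive cells of 8 of 8 libraries, at 658 to 982 CPM against 775 to 1567 CPM (log2 fold change -0.55 with SE 0.10, edgeR adjusted p = 0.00111). Mmp12, the macrophage elastase, was at 2585 to 8265 CPM against 4257 to 8246 CPM. It was lower in 6 of 8 libraries and nearly level in control replicates 1 and 3, at 6201 against 6152 and 8265 against 8246 CPM (log2 fold change -0.47 with SE 0.09, edgeR adjusted p = 0.00147). Anxa1, an anti-inflammatory protein of monocytes and granulocytes, was lower in 7 of 8 (log2 fold change -0.37 with SE 0.09, edgeR adjusted p = 0.0245). Its call was lost in 4 of the 8 fits, those without control replicate 3 or CYR61 replicate 1, 2 or 4.

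The granulocyte genes showed the widest gaps. S100a9, a subunit of calprotectin, was at 54.0 to 317 CPM in the positive cells of 7 libraries and at 617 to 4002 CPM in undetected cells. CYR61 replicate 3 ran the other way, at 1989 CPM in positive against 617 CPM in undetected cells. The log2 fold changes were -2.32 for S100a9 (SE 0.31, edgeR adjusted p = 7.88e-06), -2.22 for its partner S100a8 and -2.31 for Ngp, a granule protein. Summed over the 12 neutrophil markers, matched positive cells had 129 to 4074 CPM (median 388) and matched undetected cells 1115 to 9209 CPM (median 3049). Among the paired cells, 19 undetected and 4 positive cells had at least 1% granule-gene UMIs. Without such cells, 7 genes were called, 3 higher and 4 lower, and S100a9 was at a log2 fold change of 0.22 (edgeR adjusted p = 0.941). S100a8, S100a9 and Ngp are among the genes that chose the cells taken out, so a smaller gap in them was set by that choice. Apoe, Selenop, Slc40a1, Rnf128, Mmp12 and Anxa1 were again among the 7 calls, and Maf was not.

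**Figure D3:**
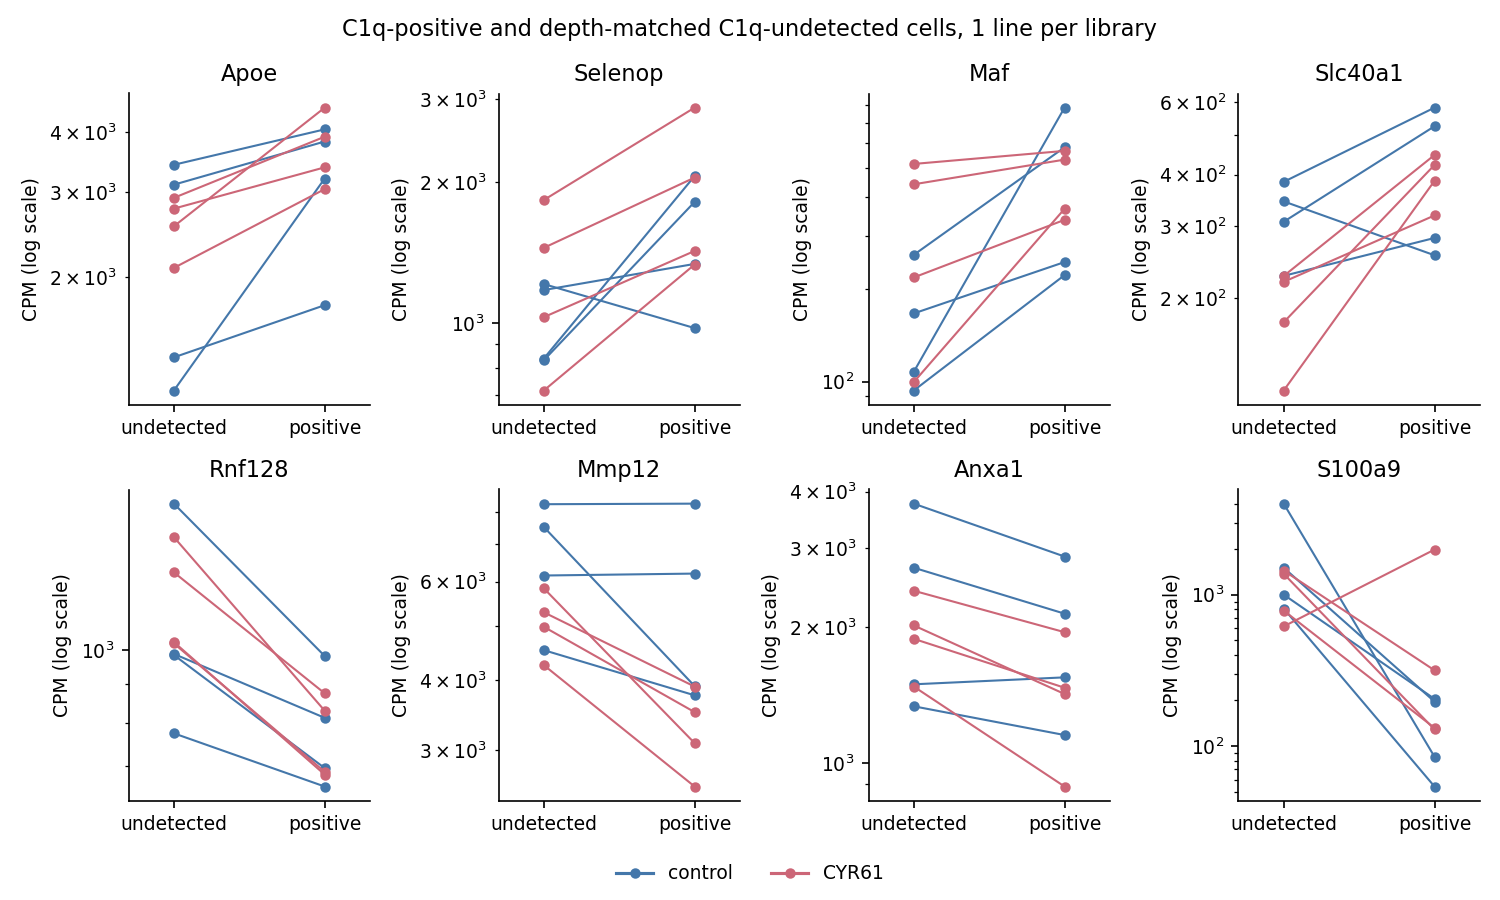
CPM (log scale) of 8 genes in C1q-undetected and C1q-positive cells matched on UMIs, with 1 line per library, control in blue and CYR61 in red. Apoe, Maf and Rnf128 slope the same way in all 8 libraries, and S100a9 runs the other way in 1 CYR61 library.

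The list of tissue-resident-type macrophage genes leaned toward the positive cells. Of its 37 genes 18 could be tested, 3 rose, 0 fell and 15 did not pass. A positive log2 fold change was seen for 17, with a median of 0.50, where all genes tested had 50.9% positive and a median of 0.00. Values that did not pass were 0.59 for Ms4a7, a membrane protein of resident macrophages, and 0.46 for the chemokine Pf4 (edgeR adjusted p = 0.0652 each). Those of Cd5l, a scavenger protein, Gas6, which bridges dying cells to Mertk, and Stab1, a scavenger receptor, were 0.82, 0.59 and 0.53 (adjusted p from 0.174 to 0.258). This list was drawn up with results of these data known, so it is not independent evidence.

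Other lists gave few or no calls. Over all genes tested 0.627% were called, so 0 calls in a short list does not set it apart. Of the 22 other complement genes 8 could be tested and none passed, with a median of -0.05. Among them the chains of complement receptors 3 and 4, Itgam, Itgax and Itgb2, had values of -0.36, -0.62 and -0.33 (edgeR adjusted p = 0.167, 0.353 and 0.258). Of the LXR and lipid list 13 were tested and Apoe alone rose. Of 24 efferocytosis genes 11 were tested and Anxa1 alone fell, and of 20 scar-associated genes 15 were tested and Mmp12 alone fell. All 15 tested interferon-response genes had positive values, with a median of 0.24, and none passed. Csf1r, Adgre1, Cd68, Mertk and Mrc1 had values of 0.31, 0.36, 0.18, 0.37 and 0.28, and Trem2 of -0.01 and Syk of -0.43, none of which passed (edgeR adjusted p from 0.351 to 0.995).

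A second comparison stayed inside the C1q-positive cells. It was chosen after the data were seen and set cells with all 3 chains against cells with 2 chains, paired on UMIs within a library. It used 887 pairs, of which 288 and 437 came from CYR61 replicates 1 and 2, and 119 cells took part in both matchings. The edgeR test called 13 of 6558 genes (0.198%), 8 higher (0.122%) and 5 lower (0.0762%) in cells with 3 chains. The direction was the same in every library for 72 genes (1.1%). Of the 1992 cells with 2 chains 1803 had C1qb and C1qc, so most pairs differed in C1qa, and the C1q genes were left out of the test.

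Of the 13 genes, Maf, Slc40a1, Mmp12 and Anxa1 were also called between positive and undetected cells, which is 30.8% of this list and 40% of the other. All 4 moved the same way in both, with log2 fold changes of 0.31, 0.47, -0.39 and -0.26 for 3 against 2 chains. Mmp12 was lower with 3 chains in 8 of 8 libraries, at 2351 to 5838 CPM against 3392 to 7386 CPM (SE 0.06, edgeR adjusted p = 0.000765). Apoe, Selenop and Rnf128 had values of 0.23, 0.28 and -0.25 that did not pass here, and S100a9 was at 0.03.

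The other 9 genes included Cxcl16, a chemokine that is also a scavenger receptor, and Zfp36l1, a protein that promotes decay of messenger RNAs. Cxcl16 was higher in 8 of 8 libraries, at 63.0 to 248 CPM against 11.3 to 175 CPM (log2 fold change 0.60 with SE 0.11, edgeR adjusted p = 0.00506). Zfp36l1 was higher in 8 of 8, at 101.0 to 351 CPM against 35.7 to 266 CPM (log2 fold change 0.55 with SE 0.09, edgeR adjusted p = 0.00106). Ms4a7, the lysosomal protease Ctsc, Pf4 and the ubiquitin ligase Wwp1 were also higher (log2 fold change 0.35 for each). Itgb3, an integrin chain, Gpc1, a cell-surface proteoglycan, and Cd300ld, a receptor of the CD300 family, were lower (log2 fold changes -1.17, -0.71 and -0.31). Itgb3 rested on few counts and was higher with 3 chains in control replicates 2 and 3.

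Of the tissue-resident-type list 25 genes could be tested, of which 5 rose, 0 fell and 23 had a positive value, with a median of 0.28 against 0.00 for all genes. This comparison leaned on the deep CYR61 libraries. Without CYR61 replicate 2 it called 1 gene, without replicate 1 it called 3 and without replicate 4 it called 4. It called 0 genes in the control libraries alone (59 at an unadjusted p under 0.05), 0 in the later date stamp alone (72) and 38 in the CYR61 libraries alone.

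**Figure D4:**
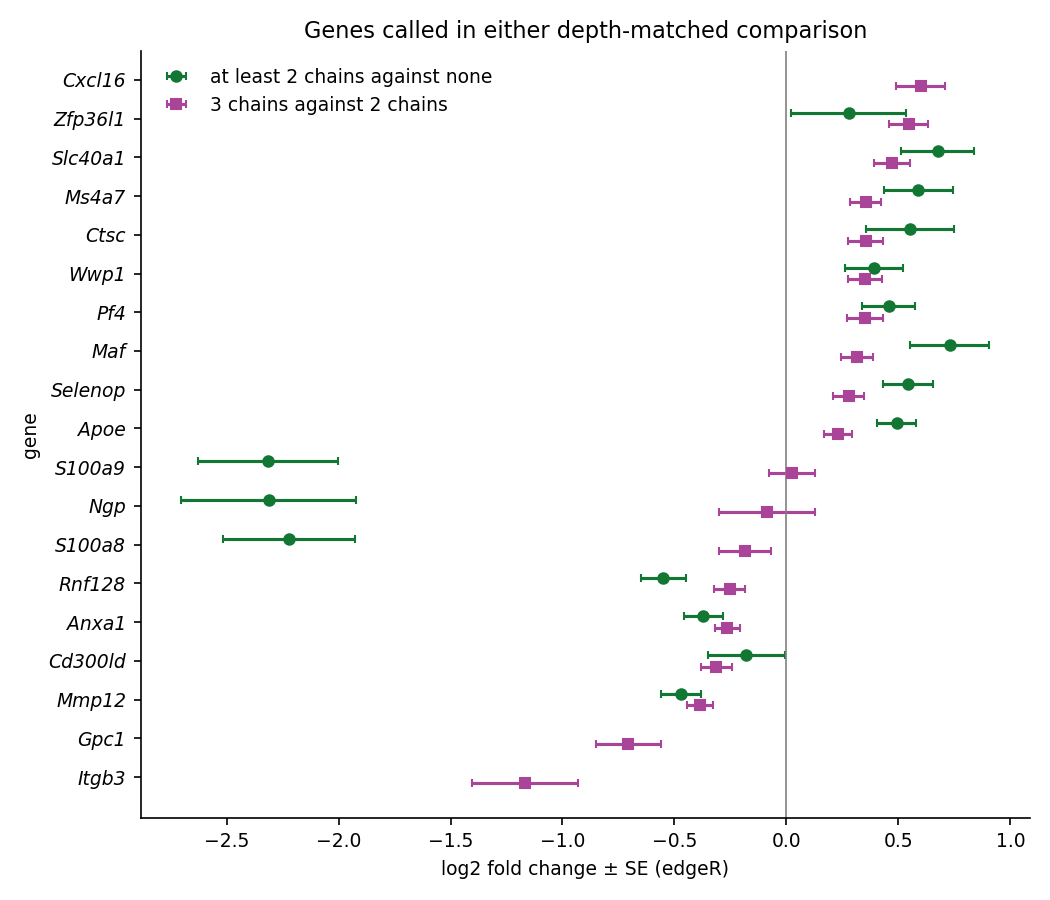
Log2 fold change ± SE (edgeR) of the genes called in either depth-matched comparison, for at least 2 chains against none (green circles, 474 pairs) and for 3 chains against 2 (purple squares, 887 pairs). The 3 granulocyte genes are far from 0 in the first and near 0 in the second; Cxcl16, Gpc1 and Itgb3 could not be tested in the first.

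Genes of the interferon response rose in C1q-positive cells with CYR61. With CYR61, 103 of 9679 genes were called by edgeR (1.06%), of which 101 rose (1.04%) and 2 fell (0.0207%). The groups did not overlap for 510 genes (5.27%). Of the 37 interferon-response genes 34 rose, 0 fell and 3 did not pass, with a median log2 fold change of 2.96 against 0.01 over all genes. That CYR61 libraries are high in these genes was known from the whole culture, so the values below describe the response within the C1q-positive cells.

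The largest rises were of genes at or near 0 in control cells. Ifi213 and Ifi206, of a family of interferon-inducible nuclear proteins, and Acod1, the enzyme that makes itaconate, had 0 control counts in 3937358 UMIs. Taking 3 counts for the whole group as the floor, with counts pooled over libraries, they were at least 57.8-fold, 55.2-fold and 21.3-fold higher with CYR61 (edgeR adjusted p = 0.00266, 0.00456 and 0.0407). The CYR61 cells held 20127330 UMIs. These 3 genes met the gene filter through the CYR61 libraries alone, so their rises are a description and their p-values are no separate support. The call of Acod1 was lost in each of the 4 fits without 1 library that could test it. Ms4a4c, a membrane protein of the MS4A family, had 3 control counts and a ratio of 76.7 (95% counting interval 26.2 to 373), and Ifi44 had 2 control counts and a ratio of 93.9 (25.9 to 776).

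Ifit2, an RNA-binding antiviral protein on chromosome 19 from 34550694 to 34576419, had enough control counts for a fold. It was at 7.14, 17.9, 14.9 and 5.15 CPM in control and 471, 365, 1234 and 1347 CPM in CYR61 replicates 1 to 4. The groups were far apart (log2 fold change 6.38 with SE 0.54, edgeR adjusted p = 0.000104). CYR61 replicates 3 and 4, of the later date stamp and low in Xist, were well above replicates 1 and 2. The latter had the earlier date stamp and high Xist, so date and Xist cannot be told apart within the CYR61 libraries. Ifit3, Mx1 and Slfn1 were also higher in CYR61 replicates 3 and 4 than in 1 and 2. Their log2 fold changes were 6.21, 5.67 and 6.82. Ifit1, at 99.0, 84.6, 126 and 133 CPM in CYR61 replicates 1 to 4, varied less. Reads shared between close relatives of the Ifi, Ifit, Slfn and Ms4a families could be split in ways not given in the sources used here, so values of single members are uncertain.

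A few macrophage genes rose with the interferon genes. Of 29 tissue-resident-type genes tested 4 rose (Marco, Ms4a7, Aif1 and Siglec1), 0 fell and 25 did not pass, and of 18 genes of the M-CSF receptor and macrophage lineage Fcgr1 rose and 17 did not pass. Fcgr1, the high-affinity antibody receptor, was at 121, 140, 89.4 and 121 CPM in control and 440, 391, 516 and 532 CPM in CYR61 replicates 1 to 4 (log2 fold change 2.08 with SE 0.18, edgeR adjusted p = 0.000104). Aif1, an actin-binding protein of macrophages, was at 100.8, 84.7, 97.9 and 95.3 CPM in control and 236, 194, 188 and 231 CPM in CYR61 replicates 1 to 4 (log2 fold change 1.26 with SE 0.17, edgeR adjusted p = 0.00154). Siglec1, a sialic acid receptor, and Marco, a scavenger receptor, rose from 4.28 ± 3.24 to 55.9 ± 17.2 CPM and from 3.67 ± 4.32 to 41.5 ± 33.3 CPM (SD, n = 4; log2 fold changes 3.53 and 3.71, edgeR adjusted p = 0.000823 and 0.0371). Ms4a7 rose from 478 ± 93.8 to 828.8 ± 85.2 CPM (SD, n = 4; log2 fold change 0.89 with SE 0.18, edgeR adjusted p = 0.0259). The calls of Marco and Ms4a7 were lost in 4 and 7 of the 8 fits without 1 library.

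Of 15 genes of MHC class I presentation 13 were tested, and B2m, Tapbp and Tap1, its light chain, its chaperone and its peptide transporter, rose (log2 fold changes 0.94, 1.10 and 1.41). All 13 had positive values, with a median of 1.08, and the other 10 did not pass. The calls of B2m, Tapbp and Tap1 were lost in 3, 6 and 7 of the 8 fits without 1 library. The 6 tested genes of MHC class II, which displays peptides to helper T cells, also all had positive values, with a median of 1.17, and 0 passed. The inflammatory chemokine Ccl5 and the acute-phase protein Saa3 rose from 2.80 ± 5.30 to 41.4 ± 16.6 CPM and from 2.39 ± 4.77 to 38.4 ± 22.1 CPM (SD, n = 4; edgeR adjusted p = 0.0259 and 0.0454). Both means in control rested on replicate 2, at 10.7 and 9.55 CPM, and the calls were lost in 4 and 6 of the 8 fits without 1 library.

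The 2 genes that fell were Ifi27 and Ighm. Ifi27, a mitochondrial protein on chromosome 12 from 103434211 to 103440239, was at 135, 148, 162 and 126 CPM in control and 66.2, 77.5, 62.8 and 62.6 CPM in CYR61 replicates 1 to 4. The groups were well apart (log2 fold change -0.98 with SE 0.18, edgeR adjusted p = 0.0155), and the call was lost in 4 of the 8 fits without 1 library. Ighm, the heavy chain of IgM, was at 26.3, 28.6, 44.7 and 10.3 CPM in control and 4.22, 3.84, 2.92 and 1.14 CPM in CYR61 replicates 1 to 4 (log2 fold change -2.99 with SE 0.53, edgeR adjusted p = 0.0115). Ighm is a B cell gene. It is also 1 of the 11 summed B cell markers, and the only 1 of them that could be tested. In control replicate 4 it was at 10.3 CPM, which is the lowest control sum. That the sum was lower in every CYR61 than in every control library is thus not separate from Ighm. Igkc and Jchain were among the markers at 0, and the part of B cell RNA in this change was not tested. The summed dendritic cell markers were higher in every CYR61 library, and of their 2 tested genes Bst2, which interferon also induces, rose. Bst2 went from 131 ± 17.9 to 548 ± 247 CPM (SD, n = 4) and is part of that sum.

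The genes higher in positive than in undetected cells did not pass the test of CYR61. In C1q-positive cells Apoe was at 2373 ± 787 CPM without and 2727 ± 308 CPM with CYR61 (SD, n = 4; log2 fold change 0.28, edgeR adjusted p = 0.969). Maf was at 376 ± 183 and 478 ± 152 CPM (log2 fold change 0.46, edgeR adjusted p = 0.945). Slc40a1 and Selenop had values of 0.13 and 0.41 that did not pass. Nr1h3, which encodes a sterol-sensing nuclear receptor, Csf1r, Adgre1, Cd68, Mertk, Trem2, Mrc1, Ccr2 and Syk did not pass either, with log2 fold changes from -0.33 to 0.43 and groups that overlapped. Pdgfa and Pdgfb, growth factors for scar-forming cells that the series title points to, had values of -0.67 and -0.28 (edgeR adjusted p = 0.917 and 0.996).

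Of the other complement genes 14 were tested in this contrast and 0 passed, with a median of 0.04. Over all genes tested 1.06% were called, so 0 calls in this short list or in those below does not set a list apart. C3, Cfp, which encodes properdin, and C3ar1, a receptor for a fragment of C3, had values of 2.13, 0.69 and 0.58 (edgeR adjusted p = 0.503, 0.216 and 0.695). Of 20 tested efferocytosis genes, 21 LXR and lipid genes, 19 scar-associated genes, 19 NF-kB and IRAK genes and 16 SYK and ITAM genes, 0 passed in each list.

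The number of calls depended on where shared barcodes were counted. With every barcode kept in each table that listed it, 0 genes were called by edgeR, with 270 at an unadjusted p under 0.05. The log2 fold changes of the 21 called rises that the naming rule took were then all above 0 and all smaller, as with Ifit2 at 1.78 in place of 6.38, Ifit1 at 1.64 in place of 5.60 and Bst2 at 1.21 in place of 2.15 (edgeR adjusted p = 0.9997 for each). With the Xist split as a term the count was 231, and in the earlier and later date stamps alone 226 and 68. The earlier date had 107 genes higher and 119 lower, where the other settings had mostly higher genes.

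Many of the same genes rose in the C1q-undetected cells, in a test added after the data were seen. In these cells, which hold fewer UMIs, edgeR called 24 of 2520 genes with CYR61 (0.952%), 23 higher (0.913%) and 1 lower (0.0397%). Of the 24 genes 22 were also called in C1q-positive cells, which is 91.7% of the former and 21.4% of the latter list. Only 43 of the 103 genes of the latter list could be tested in the undetected cells. Over the 16 interferon-response genes tested in both classes, 16 rose in positive and 13 in undetected cells, with median log2 fold changes of 2.46 and 2.40. Irf7, the factor that amplifies the interferon response, had log2 fold changes of 4.65 and 4.98, and Isg15, a ubiquitin-like modifier, 4.15 and 4.33.

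The difference between these responses was tested directly in the matched pairs, as the interaction of class and group. No gene of 2271 passed in edgeR (0 calls, 0%), where 96 had an unadjusted p under 0.05. DESeq2 also gave 0 calls, with 33 under that p. The smallest p values belonged to Bst2, a tether of budding viruses, Ngp and Fnbp1, a membrane-bending protein (edgeR adjusted p = 0.901 each). Next were Tlr13, a sensor of bacterial RNA, and S100a9, with higher adjusted p. Bst2 was at 26.2 to 90.1 CPM in positive and 43.0 to 160 CPM in undetected control cells, and at 323 to 1120 CPM and 200 to 569 CPM in the CYR61 cells. It had more in the undetected cells of 4 of 4 control libraries and more in the positive cells of 4 of 4 CYR61 libraries. With 22 to 203 pairs in a library this test had little depth, so a missing call does not show that the classes responded alike.

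**Figure D5:**
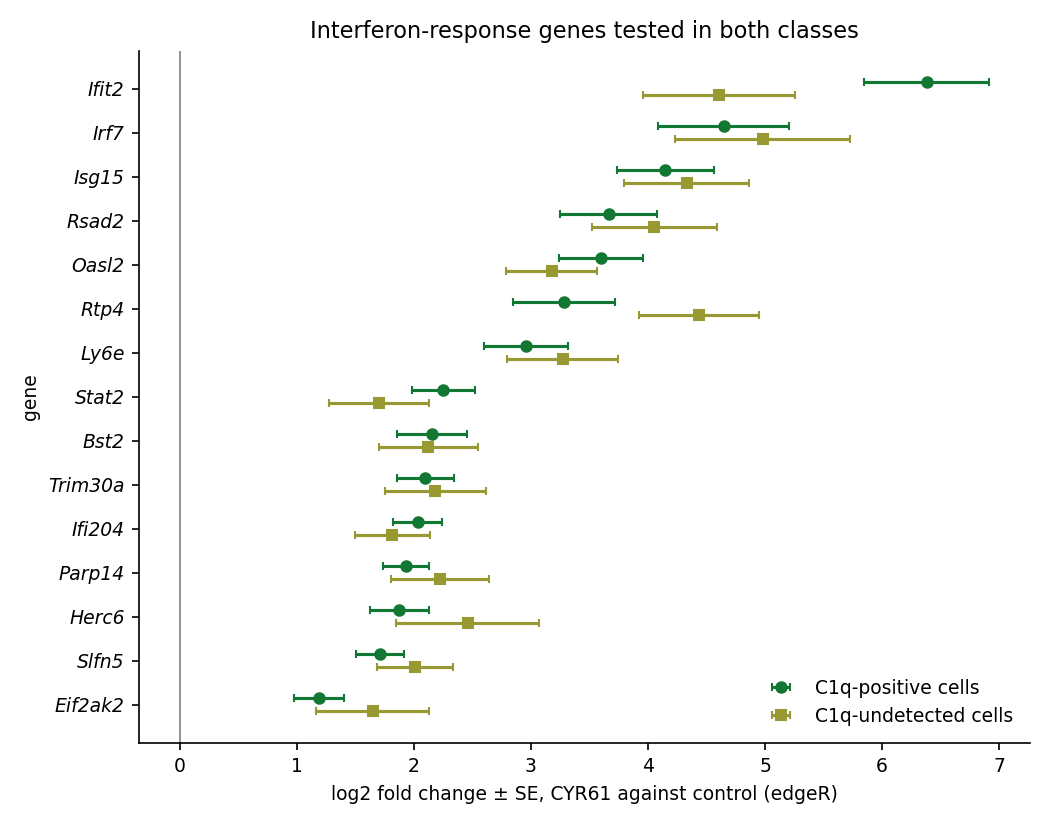
Log2 fold change ± SE (edgeR), CYR61 against control, of 15 of the 16 interferon-response genes tested in both classes, in C1q-positive cells (green circles) and C1q-undetected cells (olive squares). All values shown are above 0, and the medians over the 16 genes are 2.46 and 2.40.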

How the data were processed

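Single-cell RNA was read from 8 deposited tables of counts, UMIs per gene and barcode, with 5000 barcodes listed in each. The genome build is mm10 per the submitters' processing notes, with aligner, counter and cell calling not given in the sources used here. Kept barcodes had 1000 UMIs or more, 300 genes or more and no more than 20% of UMIs from mitochondrial genes, 7973 in all, and each was assigned to the library of its date stamp where it had most UMIs, which left 5218. No doublet caller was run. The members and gene lists were chosen with earlier results of these data known.

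C1q-positive and C1q-undetected cells were paired 1 to 1 within a library, within 0.25 log2 units of UMIs, in as many pairs as possible. A fixed number of undetected cells per positive cell had been planned and could not be had, since positive cells outnumbered undetected ones in several libraries. Counts were summed per library and class, without the C1q genes, and tested with edgeR 4.0.16 in R 4.3.3 (TMM, filterByExpr, quasi-likelihood test, Benjamini-Hochberg adjusted p under 0.05), with the library as a block between classes. DESeq2 1.42.0 was an alternative. The tests between classes and of CYR61 were run on simulated counts with planted changes larger than most of those called between classes. Those counts held no differences between libraries beyond depth, so the check does not cover such differences or small changes. CPM is over all UMIs of the summed cells. Shares were tested by exact permutation, two-sided, over 70 assignments, and paired measures by 256 sign flips, in scipy 1.17.1. Intervals and floors of 3 counts cover counting error only.

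Named genes passed at an adjusted p under 0.05 with at least 20 CPM in the higher class or group. Between classes they were those with the same direction in every library, and for CYR61 the 10 largest rises and falls with groups that do not overlap. Up to 4 called members of each list per direction, genes of the study's purpose, and the 5 smallest interaction p-values were added. All calls between 3 and 2 chains, and list members that did not pass, were named after their values were seen, as were Irf7, Isg15 and the levels of the C1q chains in all kept cells. Results of some genes are not reported here. Alternatives are given in the closing part. Positions are those of GENCODE vM21.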

Additional observations from a re-analysis of the deposited data

Results flagged for a closer look

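Of 118 groups of 4 or 8 libraries examined, 10 (8.47%) had a library set apart from the rest by Dixon's criterion, which chance meets in about 1 group in 20. That rate does not hold for groups with few counts, such as Ifi44, with 2 control counts in all, and Ms4a4c, with 3. In control C1q-positive cells, Ms4a4c was at 4.26 CPM in replicate 3 against 0 to 0.446 CPM in the others. Ifi44 was at 5.15 CPM in control replicate 4 and at 0 in the others. Tap1 was low in control replicate 3, at 21.3 CPM against 48.9 to 53.5 CPM. In control replicate 2, Ccl5 was at 10.7 CPM against 0 to 0.446 CPM, and Saa3 was at 9.55 CPM against 0. Bst2 was at 158 CPM in control replicate 3 and 121 to 122 CPM in the others.

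Pdgfa was at 75.9 CPM in C1q-positive cells of CYR61 replicate 3 and at 21.8 to 27.7 CPM in the other CYR61 libraries. The paired cells of control replicate 3 differed by 73 in median UMIs, against -10 to 24 elsewhere. Maf was 678 CPM higher in positive than in undetected cells of control replicate 2, against 53.1 to 323 CPM in the other 7 libraries. Cd68 was 509 CPM higher in positive cells of CYR61 replicate 4, against -11.8 to 164 CPM in the others.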

How the results depend on the processing

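Between C1q-positive and C1q-undetected cells, 39 genes were called with no gene filter (7 higher), 6 and 3 in the earlier and later date stamps alone (0 higher in either), 5 with all 3 chains (5 higher), 105 with every barcode in each table (60 higher), 99 against unmatched undetected cells (11 higher), 5 in control libraries alone (0 higher), and 8 to 10 without 1 library. Unmatched, Apoe was at -0.12 and Cd68 at -0.074. Without granule-gene cells, which S100a9 helped to choose, S100a9 was at 0.22. Trem2 was at -0.061 to 0.045 without 1 library, above 0 without CYR61 replicate 1, 3 or 4, and at 0.10 in the earlier date, 0.037 thinned, 0.13 with all 3 chains, 0.033 with every barcode and 0.14 in control libraries alone.

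For CYR61 in C1q-positive cells, 169 genes were called by DESeq2 (149 higher), 245 with no filter, 226 and 68 in the earlier and later dates, 41 thinned, 0 with every barcode, 231 with the Xist split, and 73 to 117 without 1 library. In the later date Adgre1 was at -0.043, Mrc1 at -0.56, Ccr2 at 0.25 and Syk at -0.12. In the earlier date Nr1h3 was at 0.22. Without 1 library, Mrc1 was at -0.059 to 0.36, below 0 without CYR61 replicate 1 or 2, and Ccr2 at -0.77 to 0.96, above 0 without control replicate 2. The replicate numbers did not pair the samples, with correlations of -0.186, 0.329, -0.0932 and 0.272. A replicate block gave 105 calls in place of 103 and Ccr2 at 0.18. For the shares (11.9 points for at least 2 chains) its 16 sign assignments allow no exact p under 0.125, so no pass was possible. The block could not be combined with the library block between classes, and the 3 nearest undetected cells per positive cell were not run.

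The interaction had 2 calls with no filter and 1 in the later date, and unmatched it put Bst2 at -0.012 and S100a9 at -0.097. For 3 against 2 chains, 42 genes were called with no filter, 29 and 0 in the earlier and later dates, 0 in control and 38 in CYR61 libraries alone, and 1 to 19 without 1 library. In undetected cells, 73 were called with no filter, 43 with the Xist split, and 16 to 35 without 1 library.

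The share with at least 2 chains differed by 23.3 points and that with all 3 by 11.5 points without thinning, and both passed (adjusted exact p = 0.0429). Without 1 library the difference was 9.14 to 14.1 points for at least 2 chains and 13.7 to 21.6 points for at least 1. Both upper values, without CYR61 replicate 3, passed. Shares without thinning also vary with the depth of the cells. All of these shares rest on the C1q UMIs that chose the cells, so a pass is no independent evidence. Unmatched cells differed by 5068 in median UMIs. Without 1 library the matched differences were 15.8 to 20.8 genes, -0.980 to -0.713 points of mitochondrial and -1.81 to -1.17 points of ribosomal RNA. With all 3 chains these shares differed by -1.39 and -2.20 points and did not pass. The cause of these changes was not tested. Depth limits the matched comparisons, which tested 1596 genes.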
